A study of Homo sapiens with 6 samples.

Results

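The 46 genes described here are regulators and markers of glioma stem-like, neural and mesenchymal cell states, taken by symbol from a named list and all found in a RefSeq table of 20050 coding genes. They were examined in peak lists of N6-methyladenosine (m6A) from U-251 MG, an established human glioblastoma cell line, made by immunoprecipitating fragmented RNA with an m6A antibody and sequencing it beside its input. Cells labelled shNC, the control, were set beside a knockdown of the splicing regulator TRA2A (shTRA2A) and a knockdown of METTL3, the enzyme that writes m6A (shMETTL3). Each of the 3 conditions has 1 immunoprecipitated and 1 input library and 1 peak list, so differences between conditions are described without a test and have no replicates behind them. The labels name neither the hairpin sequences, the number of clones nor the time after knockdown.

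m6A is placed on nascent RNA by the METTL3 and METTL14 writer complex, mostly in long internal exons and near the stop codon, and reader proteins then steer the splicing, decay or translation of the RNA. Glioblastoma cells move between programs that resemble neural stem cells, oligodendrocyte precursors, astrocytes and mesenchyme. Notch, Hedgehog, BMP, TGF-beta and Hippo signalling and a small set of transcription factors hold these programs in place.

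A peak list carries no RNA level and no read depth, so a missing peak does not separate unmethylated RNA from RNA too scarce for a peak to be called, and the labelled cell type cannot be checked by expression. The shNC, shTRA2A and shMETTL3 lists held 9206, 2736 and 5433 peaks. Column 5 of each list is a score from the authors' peak caller, used here only to rank peaks within a list, because its scale is not stated and its median differs between lists (12.4 in shNC and 8.40 in shMETTL3). Most widths are multiples of 25 nt, and longer spans off that grid, up to 9573 nt in the listed genes, may include introns, because the RefSeq table gives gene bodies without exons. Of 35 marker genes of neurons, oligodendrocytes, microglia, blood and vessels, 1 had an shNC peak, 2 an shTRA2A peak and 1 an shMETTL3 peak. In the same order, 20.0, 8.86 and 15.6% of all coding genes had a peak.

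The tables used here hold the sequence of only 1 whole peak of a listed gene, because they cover gene starts alone. It is an shNC peak of NFIB, a nuclear factor I transcription factor of glial differentiation, at 9:14307026-14307075 (GRCh38), 50 nt wide on the minus strand with a score of 13.2. It lies 181 to 230 nt upstream of an alternative NFIB start site in the RefSeq table (GRCh38.p14), inside the gene body, and is shown 5′ to 3′ as DNA letters.
NFIB shNC peak: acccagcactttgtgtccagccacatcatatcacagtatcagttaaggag
The letters were searched on the strand of the RNA for DRACH, the name of 18 pentamers in which m6A is usually written, GGACT among them. None was present, so no letter is in capitals. The same 50 bases of all 35116 RefSeq start windows held a DRACH pentamer in 53.2% of cases and GGACT in 4.41%. Of the 27 peaks of this width in the 3 lists that lie whole inside any start window, 12 held DRACH and 1 held GGACT.

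The listed genes carried peaks more often than coding genes as a whole in each list. In shNC 25 of 46 had a peak, 54.3% (exact 95% interval 39.0 to 69.1%, counting error only), against 20.0% of all coding genes. In shTRA2A 12 had one, 26.1% (14.3 to 41.1%), against 8.86%, and in shMETTL3 17 had one, 37.0% (23.2 to 52.5%), against 15.6%. The intervals lay above the shares of all coding genes in each list. The genes were chosen with earlier results of these data known, so the intervals do not test an excess. Of 135 other genes of the same pathways, 37.8% had a control peak. With each list limited to its 2736 best-scoring peaks, 13, 12 and 13 of the 46 genes had a peak in shNC, shTRA2A and shMETTL3. The shares of coding genes were then 7.86, 8.86 and 9.21%. This limit shortens the shNC and shMETTL3 lists by construction, so the near-equal counts cannot show why the full lists differed. RNA level was not measured, so the shares do not compare genes of equal RNA level. The part of RNA level in the higher shares of the listed genes was not tested.

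The 25 genes with a control peak held 49 such peaks, and 9 of them had a peak in every list. These 9 were NES, POU3F2, NFIB, NFIC, NFIX, NOTCH2, GLI3, ZEB2 and RUNX2. Another 8 had a control and an shMETTL3 peak and no shTRA2A peak: SLC1A3, TCF12, HES1, TGFB2, BMPR2, TWIST1, CEBPB and TEAD1. ZEB1 and SNAI2 had control and shTRA2A peaks and no shMETTL3 peak. Their shTRA2A peaks had ranks 2664 and 2408 of 2736, and neither was in the better-scoring 50% of that list. NCAM1, TCF4, ID2, ID4, RUNX1 and WWTR1 had control peaks alone, and TGFBR2 had an shTRA2A peak alone. The share of coding genes in each of these classes was not computed, so the classes describe the listed genes without a background. Over the whole coding set, 29.1% of control-peak genes reappeared in shTRA2A and 47.8% in shMETTL3, so absence from either list was common.

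**Figure D1:**
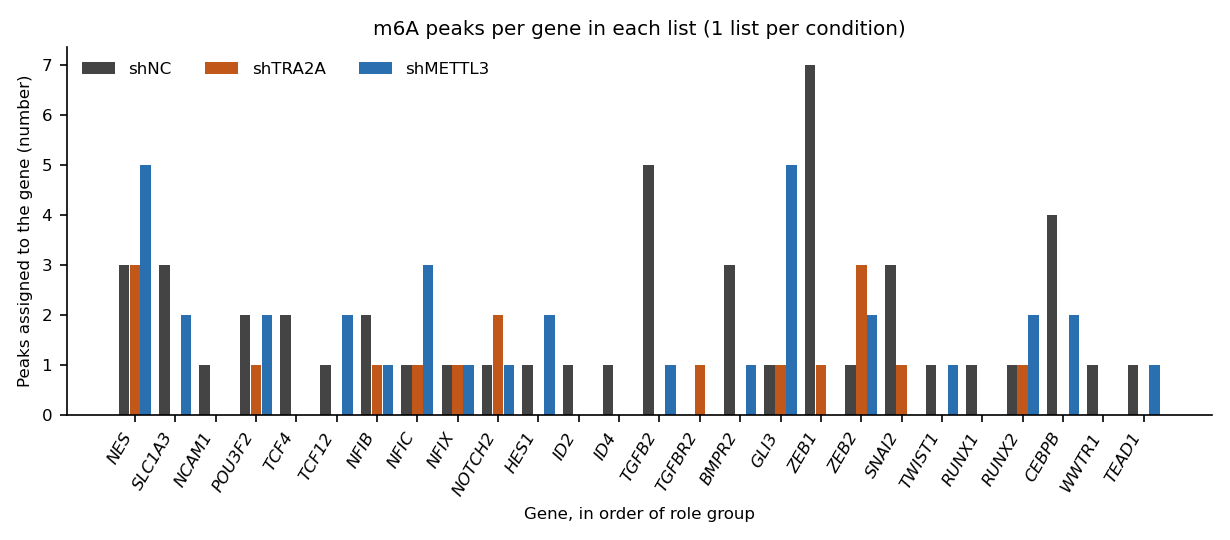
Number of peaks (y axis) assigned to each of the 26 listed genes with a peak in any list (x axis, by role group), with 1 bar per list and 1 list per condition. ZEB1 reaches 7 and TGFB2 5 in shNC, while NES and GLI3 reach 5 in shMETTL3.

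Of the 25 control-peak genes, 11 had an shTRA2A peak, 44.0% (24.4 to 65.1%), beside 29.1% of all coding genes with a control peak. In the shMETTL3 list 17 of 25 had one, 68.0% (46.5 to 85.1%), beside 47.8%. Both intervals include the value of all coding genes. The best control peak of a listed gene had a median score of 23.2, against 14.1 over coding genes with a control peak. Among genes with a best control score at or above that gene median, 8 of 16 listed genes had an shTRA2A peak, 50%, beside 40.4% of coding genes, and 10 of 16 an shMETTL3 peak, 62.5%, beside 60.7%. Below it the counts were 3 of 9, 33.3%, beside 17.8%, and 7 of 9, 77.8%, beside 34.8%. Of the listed genes with 1 control peak, 6 of 15 had an shTRA2A peak, 40%, beside 20.4%, and 10 of 15 an shMETTL3 peak, 66.7%, beside 36.5%. With 2 or more control peaks the counts were 5 of 10, 50%, beside 38.1%, and 7 of 10, 70%, beside 59.5%. No interval was computed for these classes. When only the better-scoring 50% of each list was used, 21 genes had a control peak, of which 5 had an shTRA2A peak, 23.8%, beside 24.9% of coding genes, and 11 an shMETTL3 peak, 52.4%, beside 41.5%. With the 2736 best peaks of each list the counts were 7 of 13, 53.8%, beside 44.1%, and 8 of 13, 61.5%, beside 49.2%.

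By position, fewer peaks recurred than genes. Of the 49 control peaks, 6 shared at least 1 base with an shTRA2A peak on the same strand, 12.2% (4.63 to 24.8%), near the 9.65% of all control peaks in coding genes. An shMETTL3 peak overlapped 10 of them, 20.4% (10.2 to 34.3%), near the background of 18.0%. With at least 50% of the control peak covered, these counts were 3 and 4. In the other direction, 11 of 17 shTRA2A peaks, 64.7% (38.3 to 85.8%), and 23 of 34 shMETTL3 peaks, 67.6% (49.5 to 82.6%), lay on no control peak, beside 65.4% and 66.9% in coding genes. These 4 shares all lay near those of coding genes in general.

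The knockdown lists were also set against each other, without the control. Of the 17 shTRA2A peaks, 8 were overlapped by an shMETTL3 peak, 47.1% (23.0 to 72.2%), beside 23.9% in coding genes, and of the 34 shMETTL3 peaks 7 were overlapped by an shTRA2A peak, 20.6% (8.70 to 37.9%), beside 11.8%. Both intervals include the background. The 8 shTRA2A peaks lay in NES, ZEB2, POU3F2, NFIB and NOTCH2. All 3 shTRA2A peaks of NES were among them. Those of NES became 1 when peaks within 100 nt were merged, and so did those of ZEB2. The share and its interval count such neighbours as separate peaks, and this comparison was not repeated after merging.

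**Figure D2:**
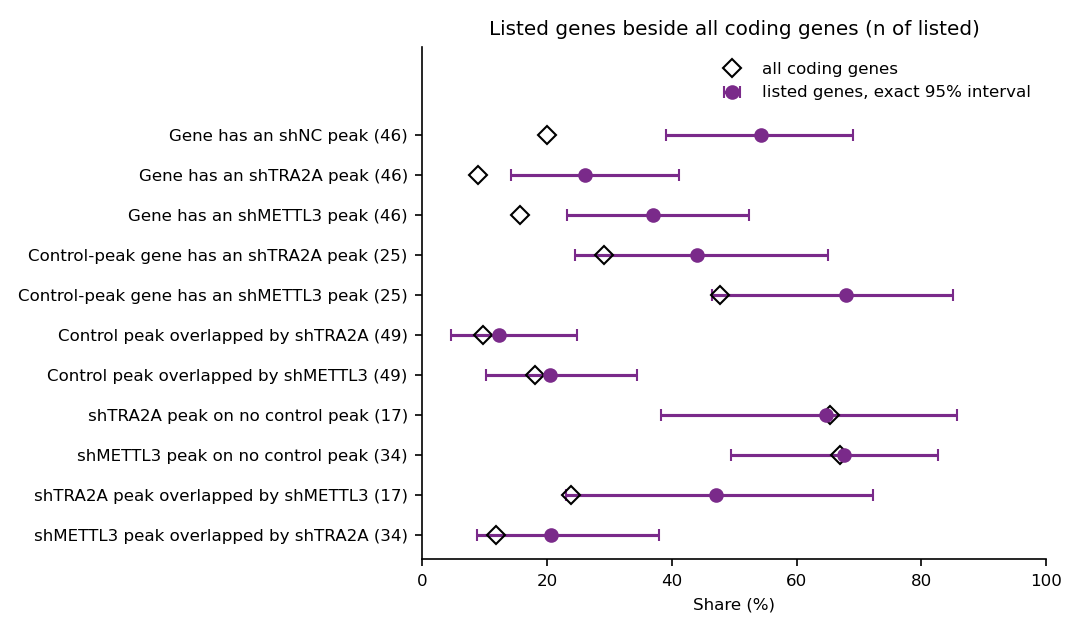
Shares in percent (x axis) of listed genes or of their peaks (filled circles, exact 95% intervals for counting error) and of all coding genes or their peaks (open diamonds), with the number of listed genes or peaks in brackets. The diamonds lie left of the interval in the first 3 lines, which count genes with a peak, and inside it in the other lines.

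Control peaks of the listed genes gathered towards the 3′ end of the gene body. Of 49, 26 had their midpoint in the last 10% of the body, 53.1%, beside 34.4% of control peaks in coding genes, and the median distance to the end of the body was 3572 nt beside 6880 nt. Without ZEB1 or without TGFB2, the genes with the most control peaks, the share was 50%. The place of TGFB2 rests on neighbouring peaks, since its 5 control peaks became 2 when peaks within 100 nt were merged, fewer than the 4 of CEBPB. Counted by gene, 15 of 25 had such a peak, 60%, beside 43.6% of the 3990 coding genes with a control peak and a known strand. No interval was computed for the shares by position, so counting error in them is not shown. In the knockdown lists 10 of 17 shTRA2A peaks, 58.8%, and 16 of 34 shMETTL3 peaks, 47.1%, lay there, beside 23.8% and 26.9%. Spans with a width off the 25 nt grid made up 7 of the 49 control peaks, 14.3%, beside 18.8% in coding genes, and in shTRA2A and shMETTL3 they made up 11.8% of the peaks of listed genes, beside 32.6% and 29.4%. Their part in the difference in position was not tested. The place of the stop codon is not in the table and was not measured.

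Of the intermediate filament genes, which build the cytoskeleton of neural stem cells and astrocytes, NES alone had peaks. NES encodes nestin, the stem cell filament, and its body runs from 156668763 to 156677407 on chromosome 1, minus strand. The shNC peaks lay at 156671363-156671712 (score 32.2), 156672213-156672487 (14.9) and 156672963-156675248 (11.6, a span of 2286 nt). The shTRA2A peaks lay at 156669888-156670012 (8.60), 156670038-156670212 (9.60) and 156670313-156670512 (11.8). All shTRA2A peaks were thus closer to the 3′ end than any control peak, with midpoints 1187 to 1649.5 nt from it against 2774.5 to 5342.5 nt. The 5 shMETTL3 peaks ran from 156669888 to 156672712, with scores of 3.87 to 18.9, and none touched a control peak. The nearest, at 156671138-156671337, was 25 nt away from one. The first shMETTL3 peak, at 156669888-156670187 (score 7.23), began at the same base as the first shTRA2A peak and covered it whole. All 3 shTRA2A peaks of NES shared bases with an shMETTL3 peak, and they became 1 when peaks within 100 nt were merged. Within the lists the best NES peaks ranked high, at the 91.4th percentile of scores in shNC, the 92.6th in shTRA2A and the 94.2nd in shMETTL3. VIM and GFAP, the filaments of mesenchyme and mature astrocytes, were assigned no peak. An shMETTL3 peak at 17:44902946-44903195 (score 19.2) reached 37 nt into the GFAP body and also lay in DNAAF19, so it was given to neither.

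Among radial glia and astrocyte proteins, SLC1A3 and NCAM1 had control peaks and none had an shTRA2A peak. Over all coding genes, 20.0% had an shNC peak and 8.86% an shTRA2A peak. SLC1A3, the astrocyte glutamate transporter GLAST (5:36596588-36688334), had shNC peaks at 36613155-36613204 (score 7.91), 36686170-36686344 (27.4) and 36687695-36687794 (14.6). Its best control peak shared 150 nt with an shMETTL3 peak at 36686195-36686394, which had a score of 16.5 and lay at the 91.2nd percentile of that list. The other shMETTL3 peak, at 36612930-36612979 (8.21), was 175 nt away from the first control peak. The third control peak, nearest the 3′ end, was 1300 nt from the closest shMETTL3 peak. NCAM1, a neural cell adhesion molecule, had a single control span of 9573 nt at 11:113221814-113231386 with a score of 23.2. Without spans over 1000 nt NCAM1 had 0 control peaks. FABP7, a fatty acid carrier of radial glia, PTPRZ1, a receptor phosphatase, and PROM1, the stem cell surface protein CD133, had no peak.

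The neural transcription factors had a control peak in 3 of 7 genes, beside 20.0% of coding genes. POU3F2, a POU-domain factor of neural progenitors (6:98834574-98839458), had shNC peaks at 98835724-98836048 (score 24.4) and 98836299-98836398 (9.72). The second, weaker one was overlapped by the shTRA2A peak at 98836349-98836398 (7.38) and by an shMETTL3 peak at 98836324-98836423 (11.4). The stronger control peak of POU3F2 was found in neither knockdown list, and a further shMETTL3 peak stood 50 nt behind the annotated start, at 98834624-98834723 (5.45). TCF4, an E protein that pairs with neural basic helix-loop-helix factors, had shNC peaks at 18:55227885-55228034 (15.3) and 18:55232495-55232569 (11.1) and none elsewhere. TCF12, a second E protein, had 1 control peak with a score of 9.02 and 2 shMETTL3 peaks elsewhere in the gene, with scores of 7.94 and 10.5. OLIG1 and OLIG2 of the oligodendrocyte lineage, SALL2 and PAX6 had no peak in any list.

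No peak was assigned to MSI1 and MSI2, the Musashi RNA-binding proteins, or to BMI1, a Polycomb repressor of senescence genes. For BMI1 this rests on the gene rule. An shNC peak at 10:22329498-22329622 (score 16.6) and an shMETTL3 peak at 10:22329223-22329297 (11.3) lay in BMI1 and in the read-through gene COMMD3-BMI1, and neither body lies inside the other. If every touched body counts, BMI1 had 1 shNC, 0 shTRA2A and 1 shMETTL3 peaks.

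The nuclear factor I genes encode paired DNA-binding factors that drive gliogenesis, and 3 of 4 had a peak in every list. The share of coding genes with a peak in every list was not computed. For single lists, a different measure, the shares of coding genes were 20.0% in shNC, 8.86% in shTRA2A and 15.6% in shMETTL3. NFIB (9:14081843-14532077) had, beside the peak printed above, a control peak at 14087993-14088242 with a score of 33.8, at the 92.2nd percentile. Neither recurred. Both knockdown lists instead held a long span in NFIB, at 14314571-14322028 in shTRA2A (score 7.67) and 14314446-14322003 in shMETTL3 (4.39), which shared 7433 nt. These spans had rank 1971 of 2736 and rank 5260 of 5433. Without spans over 1000 nt NFIB had 0 peaks in both knockdown lists, and likewise in the better-scoring 50% of each list. NFIX had a control peak at 19:13097245-13097344 (13.6) that shared 25 nt with the shTRA2A peak at 13097220-13097269 (7.02), while its shMETTL3 peak lay at 13096945-13096994 (8.84). NFIC, picked out after its values were seen, had a control peak at 19:3463117-3463216 (12.8) that lay whole inside an shMETTL3 peak at 3463092-3463366 (7.73). Its shTRA2A peak was at 3465592-3465791 (9.71), and the best of its 3 shMETTL3 peaks, at 3465142-3465191, had a score of 18.8. These sites lay 2375 nt and 1925 nt downstream of the control peak. NFIA had no peak.

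Of the Notch receptors and targets, NOTCH2 had the second-best control peak of the listed genes. NOTCH2, a receptor that releases a transcriptional coactivator when a ligand binds (1:119911553-120069662, minus strand), had 1 shNC peak at 119914853-119915302 with a score of 52.3, rank 265 of 9206. An shTRA2A peak at 119915028-119915252 (score 12.5, rank 159 of 2736) and an shMETTL3 peak at 119915078-119915252 (8.78, rank 2364 of 5433) both lay inside it. A second shTRA2A peak lay at 119915628-119915802 (9.78). NOTCH2, POU3F2 and ZEB2 were the listed genes with a control peak overlapped in both knockdown lists. HES1, a repressor induced by Notch, had a control peak at 3:194138324-194138373 (12.3) and 2 shMETTL3 peaks at 194137226-194137275 (7.43) and 194137699-194137773 (4.68) that did not touch it. NOTCH1 and HEY1 had no peak.

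The ID proteins block basic helix-loop-helix factors and are induced by BMP. ID2 had 1 control peak, at 2:8683774-8683973 (score 37.2, 93.6th percentile), and ID4 had 1, at 6:19839300-19839374 (13.4). Neither gene had a knockdown peak, and ID1 and ID3 had none in any list. No ID gene thus had a peak outside shNC, which rests on ID2 and ID4 with 1 control peak each. Over all coding genes holding just 1 control peak, 20.4% appeared again in the shTRA2A list and 36.5% in the shMETTL3 list. Absence from a knockdown list was thus the more frequent outcome for such genes in general.

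Of the 3 genes of TGF-beta and BMP signalling, TGFB2 and BMPR2 had control and shMETTL3 peaks and TGFBR2 had an shTRA2A peak. TGFB2, a secreted TGF-beta ligand (1:218345336-218444619), had 5 in shNC, at 218346661-218346735 (score 15.4), 218437488-218441219 (9.02), 218441295-218441594 (32.0), 218441620-218441719 (15.9) and 218441770-218441844 (12.4). The last 3 stand close together, with midpoints 2812 to 3174.5 nt from the end of the body. TGFB2 had no shTRA2A peak, and its 1 shMETTL3 peak was a span of 1646 nt at 218434422-218436067, upstream of that cluster. That span had a score of 28.0, rank 94 of 5433, the 98.3rd percentile of its list and the highest percentile among the knockdown peaks of listed genes. Without spans over 1000 nt TGFB2 had 0 shMETTL3 peaks. BMPR2, a type II BMP receptor (2:202376327-202567749), had the best control score of the listed genes, 63.3 at 202555254-202555878, rank 170 of 9206. Its other control peaks followed directly, at 202555904-202556028 (13.4) and 202556154-202556203 (10.4). BMPR2 had no shTRA2A peak and 1 shMETTL3 peak of 50 nt at 202555329-202555378 (12.8), inside the strongest control peak. With the 2736 best peaks of each list TGFB2 and BMPR2 each had 1 shNC and 1 shMETTL3 peak. TGFBR2, the type II TGF-beta receptor, had 1 peak in all, found in shTRA2A at 3:30672343-30672392 (50 nt, score 8.06).

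Of the Hedgehog effectors GLI3 had peaks in every list and GLI2 had none. GLI3, a zinc finger factor that acts mostly as the repressor of the pathway (7:41960949-42264268), was singled out with its values known. Its control peak at 41964199-41964573 (score 14.0) shared bases with 2 shMETTL3 peaks, at 41964249-41964323 (7.69) and 41964499-41964648 (4.68). The shTRA2A peak of GLI3, at 41965949-41965998 (7.43), lay outside it. The other 3 shMETTL3 peaks had scores of 6.09 to 10.3, and 1 of them lay 276883 nt from the end of the body. GLI3 thus had 5 shMETTL3 peaks and 1 control peak, which was wider than any of the 5. In the better-scoring 50% of each list it had 1 of each, and with the 2736 best peaks of each list 1 and 0.

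The group of epithelial-mesenchymal transition (EMT) and mesenchymal factors had a control peak in 7 of 8 genes, beside 20.0% of coding genes, and 18 control peaks, of which 7 were those of ZEB1. Of the 7, 4 had shTRA2A peaks, 4 had shMETTL3 peaks, and ZEB2 and RUNX2 had both. The matching background, over every coding gene that held control peaks, was 29.1% for shTRA2A and 47.8% for shMETTL3. CHI3L1, a secreted glycoprotein of mesenchymal glioblastoma, had no peak.

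ZEB1, a zinc finger repressor of epithelial genes (10:31318417-31529804), had 7 control peaks, the most of any listed gene. They lay at 31495795-31502353 (score 39.0, a span of 6559 nt), 31502379-31502453 (14.4), 31521336-31521435 (9.78), 31521486-31521735 (17.1), 31521936-31523956 (10.3), 31526740-31526814 (18.4) and 31526990-31527139 (20.0). Only the last was overlapped in a knockdown list, by the shTRA2A peak at 31527040-31527089 (50 nt, score 6.68). That peak had rank 2664 of 2736, near the bottom of its list. In the shMETTL3 list ZEB1 had no peak. ZEB2, its relative and picked out after its values were seen (2:144384081-144520119), had 1 control peak at 144389343-144389617 (23.6). An shTRA2A peak at 144389493-144389742 (10.5) and an shMETTL3 peak at 144389543-144389742 (7.57) overlapped it, and these 2 knockdown peaks shared their upper end. Further peaks followed upstream in the transcript, at 144389793-144389917 (8.11) and 144389943-144389992 (7.24) in shTRA2A and at 144389768-144389817 (11.3) in shMETTL3. Across the lists in the same order ZEB2 thus had 1, 3 and 2 peaks, where ZEB1 had 7, 1 and 0. With peaks within 100 nt merged, ZEB2 had 1 in every list and ZEB1 had 5, 1 and 0, so the higher ZEB2 counts rest on neighbouring peaks.

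SNAI2, the repressor Slug (8:48917598-48921429), had control peaks at 48918573-48918672 (score 14.6), 48920048-48920197 (12.1) and 48920348-48921217 (13.4). The last, 870 nt wide, held the whole shTRA2A peak of 795 nt at 48920423-48921217 (7.37), and both ended at the same base. TWIST1, a basic helix-loop-helix factor of mesenchyme, had 1 weak peak in shNC (7:19117115-19117189, score 7.90) and 1 in shMETTL3 (19116051-19116100, 7.11), which did not meet.

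The RUNX factors differed from each other. RUNX1 (21:34787801-35049302) had 1 control peak, at 34887397-34887721 with a score of 30.8, and none in the knockdown lists. RUNX2, picked out after its values were seen (6:45328330-45551082), had a control peak at 45547426-45547700 (27.2) that began at the same base as an shMETTL3 peak at 45547426-45547600, whose score of 19.2 put it at the 94.4th percentile. The RUNX2 shTRA2A peak, at 45546851-45546925 (8.03), ended before that site, and a second shMETTL3 peak lay upstream at 45422875-45422949 (8.50).

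CEBPB, a leucine zipper factor regarded as a master regulator of mesenchymal glioblastoma, is a short gene (20:50190583-50192690) with 4 control peaks. On the plus strand, that of the gene, they lay at 50191205-50191329 (score 10.2), 50191505-50191629 (10.1) and 50192205-50192329 (15.3). The fourth, at 50191351-50191400 (8.77), was on the minus strand, the only peak of a listed gene opposite to its gene. For NCAM1, GLI3, SNAI2, TWIST1 and TEAD1 the strand itself was read from the peaks. The 2 shMETTL3 peaks, at 50191305-50191354 (3.92) and 50192255-50192304 (7.16), each met a control peak. CEBPB had no shTRA2A peak.

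**Figure D3:**
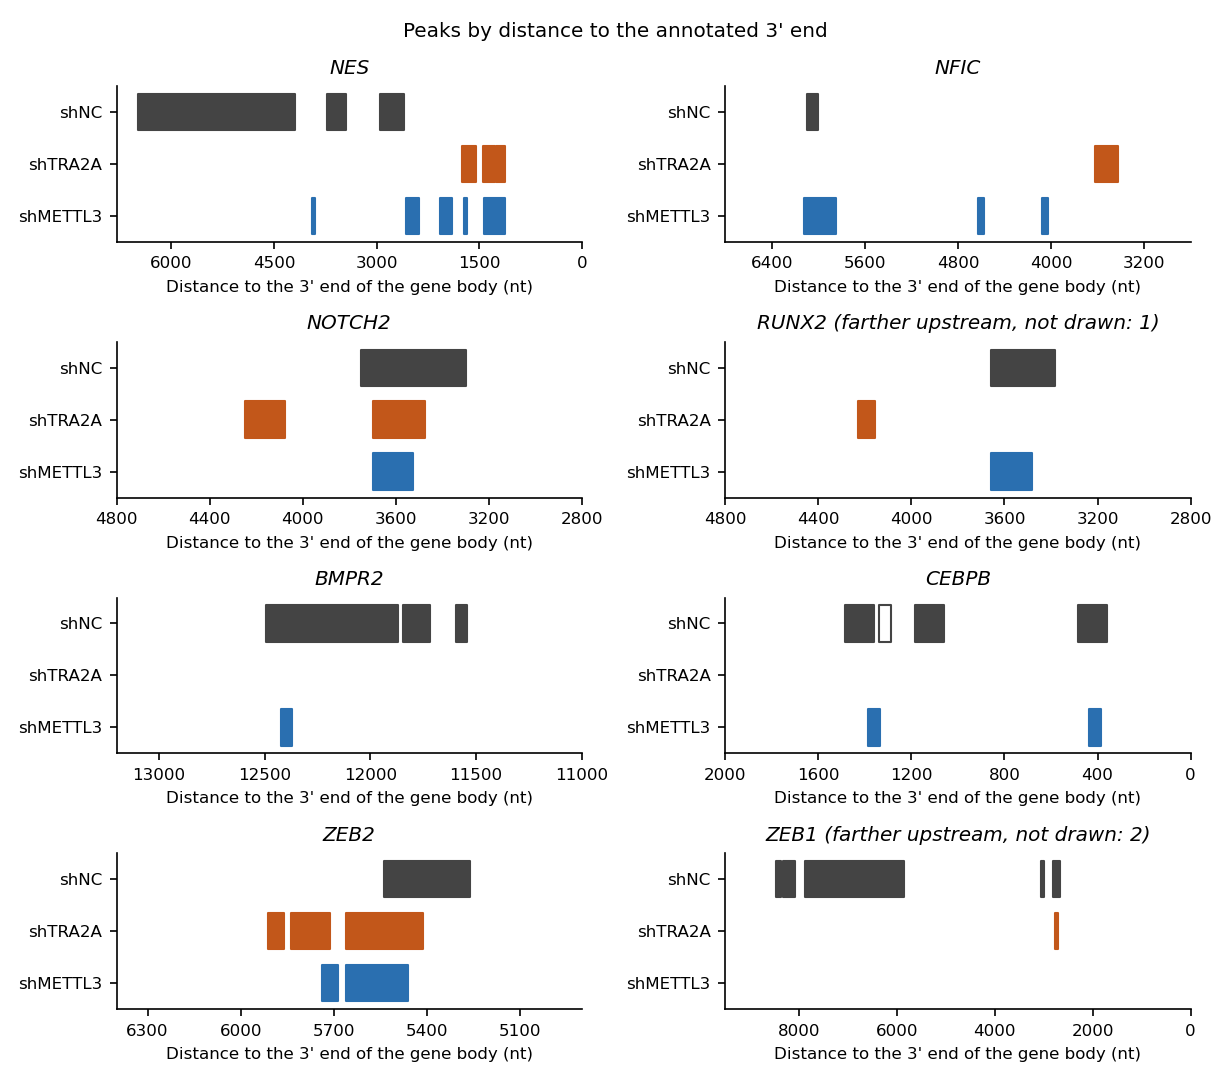
Peaks of NES, NOTCH2, BMPR2, ZEB2, NFIC, RUNX2, CEBPB and ZEB1 drawn to scale by distance in nt to the annotated 3′ end of the gene body (x axis, transcript direction left to right), with 1 row per list. The open box in CEBPB is the peak on the opposite strand, peaks 25 nt apart can merge in the drawing, and 1 RUNX2 and 2 ZEB1 peaks farther upstream are not drawn. In NES no knockdown peak touches a control peak, and in NOTCH2 the shNC peak is met in both knockdown lists.

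Of the 3 Hippo effectors, 2 had a control peak and 1 an shMETTL3 peak, beside 20.0 and 15.6% of coding genes. WWTR1, the coactivator TAZ, had a control span of 1785 nt at 3:149526100-149527884 (score 13.8) and no knockdown peak. TEAD1, the DNA-binding partner of TAZ and YAP, had a control peak of 50 nt at 11:12942263-12942312 (9.22) and an shMETTL3 span of 7082 nt at 12930256-12937337 (12.3). YAP1 had none. Without spans over 1000 nt WWTR1 had 0 control peaks and TEAD1 had 0 shMETTL3 peaks. None of the 3 Hippo effectors had an shTRA2A peak, beside 8.86% of coding genes.

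**Figure D4:**
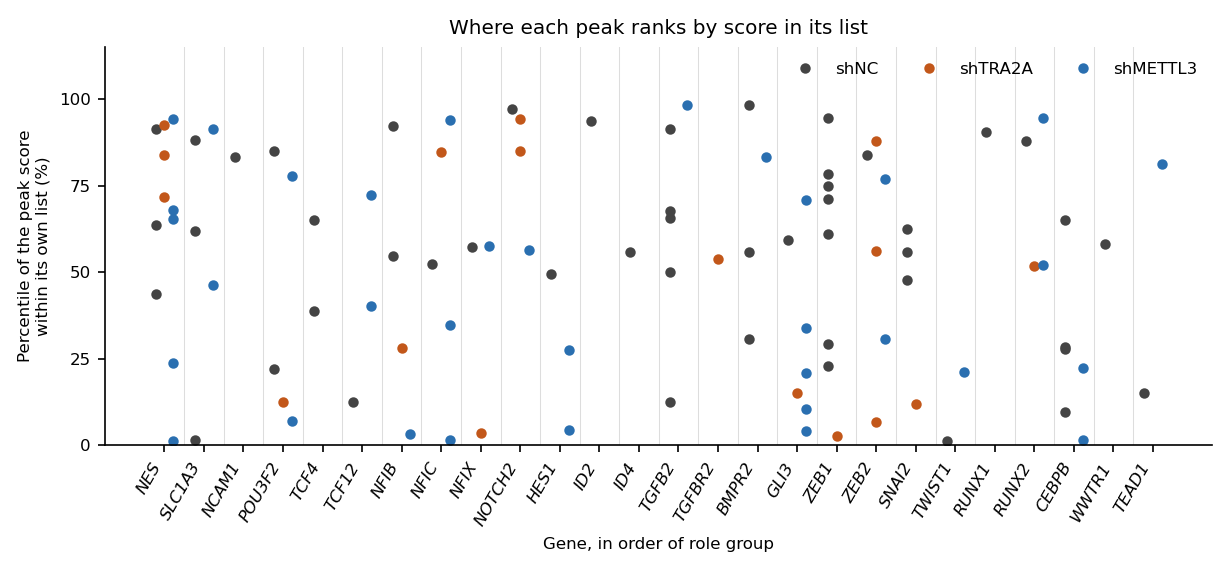
Percentile of the score of each peak within its own list (y axis, percent of the list with an equal or lower score) for every peak of the 26 genes (x axis), coloured by list. The best control peaks of BMPR2, NOTCH2, ZEB1 and ID2 stand between 93.6 and 98.2%, while the shTRA2A peaks of ZEB1 and NFIX lie at 2.67 and 3.62%.

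Other genes of the same pathways were read from 6 lists of 135 genes in all. Of these, 51 had a control peak, 37.8%, beside 20.0% of coding genes, and 17 of the 51 appeared in the shTRA2A list, 33.3%, and 25 in the shMETTL3 list, 49.0%, close to the 29.1% and 47.8% of coding genes. The counts of each pathway stand beside the same 20.0% of coding genes with a peak in shNC, 8.86% in shTRA2A and 15.6% in shMETTL3. In the Notch pathway 7 of 26 had a control peak, 3 an shTRA2A peak and 6 an shMETTL3 peak, and the best control scores were those of SPEN, a corepressor (56.9), JAG1, a ligand (37.6), and RBPJ, the DNA-binding partner of Notch (28.3). In the Hippo pathway the counts were 13, 6 and 7 of 24, led by MAP4K4, a kinase (60.1), CCN2, a target gene (40.4), and AMOTL2 (30.6). In TGF-beta and BMP signalling they were 14, 6 and 8 of 29, led by SKIL and SKI, which repress SMAD activity (75.9 and 37.2), and SMAD5, a BMP effector (32.8). In the Hedgehog pathway they were 3, 3 and 3 of 15, led by KIF7, a ciliary kinesin (39.9), then the coreceptors CDON (9.46) and BOC (8.33).

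JAG1 had 1 control peak and no knockdown peak, as ID2 did, while KIF7 had 2 control, 3 shTRA2A and 3 shMETTL3 peaks. Further mesenchymal genes had peaks in 7, 3 and 8 of 19 cases, led by FN1, fibronectin (28.9), CEBPD (20.1) and CD44, the hyaluronan receptor (17.7). Further neural and stem genes had peaks in 7, 2 and 3 of 22, with ATRX, a chromatin remodeller (75.5), and EZH2, the Polycomb methyltransferase (17.8), among the best control scores. The marker lists gave 1, 1 and 0 of 9 neuronal genes, 0, 0 and 1 of 7 oligodendrocyte genes, 0 of 11 microglia and blood genes in every list, and 0, 1 and 0 of 8 vessel genes. All these counts stand beside 20.0% of coding genes with a peak in shNC, 8.86% in shTRA2A and 15.6% in shMETTL3. The neuronal gene was MAP2, a microtubule protein, with 3 control peaks and a best control score of 12.6.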

How the data were processed

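Per the labels' protocols, libraries were made with a strand-keeping kit. The authors deposited 4 peak lists in BED form without a header. Per the submitters' processing notes HISAT2 2.2.1, SAMtools, featureCounts 2.0.1 and GRCh38 were used, while for the peak caller and the depth the sources used here name nothing. Column 5 is a score per peak deposited by the authors, of unstated scale. The list that matches no label equals the shTRA2A list and was not used.

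Peaks were assigned to RefSeq gene bodies (GRCh38.p14, 20050 coding and 18303 long non-coding genes) that they touch. Of several coding bodies, the one that holds the peak and lies inside the others was taken. Overlap needs at least 1 shared base on the same strand, and 0 control peaks differed from bedtools 2.31.1. Gene strand came from RefSeq start windows or, for 5 listed genes with peaks, from most of their peaks. Python 3.11.15, pandas 2.3.3 and scipy 1.17.1 were used, and the code was tested on simulated data. Intervals are Clopper-Pearson.

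The 46 genes, their role groups, the pathway lists and the rules were chosen with earlier results of these data known. The rule names every peak of the 5 genes with the best control score, of the 8 with the most control peaks, of those with control peaks alone and of those with knockdown peaks alone, and 3 genes per pathway list, of which 1 is not reported here. Peaks of other listed genes were given after their values were seen. Alternatives covered overlap, strand, score, list length, width, merging and gene assignment.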

Additional observations from a re-analysis of the deposited data

How the results depend on the processing

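The 9 counts over the listed genes stayed within 1.5 times of the reported value when spans over 1000 nt were left out, when every touched body counted and when peaks had to lie on the strand of the gene. The 4 that count peaks by overlap also did so with midpoints within 100 nt and with overlap on either strand. With at least 50% of a peak covered, 3 and 4 control peaks were overlapped by shTRA2A and shMETTL3 in place of 6 and 10. After the lower-scoring 50% of every list was dropped, 6 genes had an shTRA2A peak, 13.0%, beside 4.73% of coding genes. Of 21 control-peak genes, 5 and 11 had an shTRA2A and an shMETTL3 peak (23.8 and 52.4%, beside 24.9 and 41.5%). Of 33 control peaks, 2 and 4 were overlapped by them (6.06 and 12.1%, beside 11.9 and 19.1% in coding genes). On no control peak lay 8 of 10 shTRA2A peaks (80%, beside 58.3%) and 12 of 16 shMETTL3 peaks (75%, beside 65.2%). With the 2736 best peaks of each list, 13, 12 and 13 genes had an shNC, shTRA2A and shMETTL3 peak, beside 7.86, 8.86 and 9.21% of coding genes. Of the 13 control-peak genes, 7 and 8 had an shTRA2A and an shMETTL3 peak (53.8 and 61.5%, beside 44.1 and 49.2%). Of 16 control peaks, 3 and 4 were overlapped by them (18.8 and 25%, beside 22.3 and 25.9%). On no control peak lay 14 of 17 shTRA2A peaks (82.4%, beside 75.1%) and 12 of 16 shMETTL3 peaks (75%, beside 71.7%). Both limits keep fewer peaks by construction. With peaks within 100 nt merged, 7 shTRA2A peaks lay on no control peak in place of 11, because neighbouring peaks were joined. Read depth is unknown and limits every absence.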
